A study of Homo sapiens with 8 samples.

Results

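The transcripts described here come from the immunoglobulin heavy chain locus and from the gene of the joining chain. The genes are IGHM (the constant region of the mu heavy chain), IGHD (the constant region of the delta heavy chain), IGHV1-69 and IGHV5-78 (variable segments of the same locus, the latter a pseudogene) and JCHAIN (the joining chain). They were taken as all probe sets of the deposited array table whose only gene symbol in the platform annotation is one of these 5, which gave 13 of 54675 probe sets: 5 for IGHM, 5 for IGHD and 1 each for JCHAIN, IGHV1-69 and IGHV5-78. The genes were chosen from the GSK126 minus DMSO log2 differences of these same arrays, so those differences, and the gap between them in the cell lines, are given as a description. Counts of members past the threshold used for all probe sets are stated there with their background, no p is printed and nothing is read from them. The contrasts between the lines were not used in that way and were tested. They share their arrays with the contrasts that chose the genes, so their p-values are not independent of that choice.

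The arrays held 4 groups of 2 biological replicates each. SUP-B8 cells with GSK126 at 0.5 uM, SUP-B8 cells with the DMSO vehicle, NALM-6 cells with GSK126 at 0.5 uM and NALM-6 cells with DMSO were all harvested at 72 hours, and total RNA went to Affymetrix HG-U133 Plus 2.0 arrays, on which a probe set is a group of short probes for 1 transcript. GSK126 blocks EZH2, the methyltransferase that places the silencing mark H3K27me3. Both lines are described as acute lymphoblastic leukaemia, and their EZH2 genotype is not stated in the labels. Each label stands for a single line, so a difference between labels is one between 2 lines and not between kinds of leukaemia.

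Defining genes of precursor B cells stood apart from the NALM-6 label. NALM-6 is generally described as a precursor B-cell line with terminal transferase, yet DNTT averaged 6.65 ± 0.12 in GSK126 arrays and 6.86 ± 0.04 in DMSO arrays labelled NALM-6 (SD, n = 2 each), below the medians of those arrays. VPREB1, IGLL1, RAG1 and CD9 were also below the array medians there. All 8 precursor markers lay above the medians in the arrays labelled SUP-B8, against 3 of 8 in those labelled NALM-6, while 5 of 6 markers of mature B cells lay above them in the arrays labelled NALM-6. The mean log2 value over the genes of the precursor list, per array, was 12.18 to 12.28 in the arrays labelled SUP-B8 and 7.57 to 7.69 in those labelled NALM-6. The groups are therefore called by their labels throughout, and every difference between lines is one between labels. All 6 B-lineage markers with a probe set were above the medians on all 8 arrays. Of the other blood cells, 1 of 6 myeloid markers was, and the defining myeloid genes CD14 and MPO were below the medians in all 4 groups, whereas 3 of 7 T-cell markers, CD3E and CD3D among them, lay above them in all 4. CD3E averaged 8.12 to 8.27 over the groups, and whether signal of that height is expression or background was not tested. The part of the marker differences between labels in the results below was not tested.

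A heavy chain is built in early B cells by joining variable, diversity and joining segments on the chromosome, and the assembled exon is then spliced to a constant region. Mu and delta chains come from 1 long primary transcript, by alternative splicing and choice of the polyadenylation site, which is why mature B cells can carry IgM and IgD with the same variable region. The joining chain links the units of pentameric IgM and dimeric IgA that plasma cells secrete. In B cells IgM stays on the membrane with CD79A and CD79B, and in plasma cells the secreted form of the mu transcript takes over.

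In the RefSeq gene table IGHM and IGHD are annotated as constant regions, IGHV1-69 as a V segment, IGHV5-78 as a V segment pseudogene and JCHAIN as a protein-coding gene. The array files name no genome build, so no gene coordinates are given. A promoter was held in the RefSeq table for 1 of the 5 genes, JCHAIN. It is shown with matches to the octamer known from promoters of immunoglobulin variable segments, a class to which JCHAIN does not belong. It covers the 250 bases before the gene's start, chr4:70666509-70666758 on the minus strand (GRCh38.p14), 5′ to 3′, with TGCAAA on either strand in capitals.
JCHAIN upstream: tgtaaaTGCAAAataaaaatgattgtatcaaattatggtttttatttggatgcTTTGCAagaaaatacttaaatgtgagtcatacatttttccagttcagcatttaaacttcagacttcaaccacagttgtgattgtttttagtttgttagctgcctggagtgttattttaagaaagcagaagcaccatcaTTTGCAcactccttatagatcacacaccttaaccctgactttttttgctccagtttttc

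The full octamer ATGCAAAT, the binding sequence of the POU2F factors, had 0 matches in these 250 bases on either strand and occurs in the same window of 1.63% of 35116 RefSeq promoters. The truncated ATGCAAA had 1 match and occurs in 3.94% of the promoters. TGCAAA had 3 matches, of which the first overlaps that of ATGCAAA, and occurs in 12.62% of them. GGAA, the core of ETS factors such as SPI1 and SPIB, had 1 match and occurs in 92.74%. These matches describe letters, not bound sites.

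Of the 13 probe sets, 12 had at least 2 of 8 arrays above the median of all probe sets on the array and were tested among the 30199 probe sets that met this limit. IGHM 216491_x_at had no array above its median, with values of 6.43 to 6.72 on all 8 arrays, and was not tested. IGHD 222285_at passed through the 2 DMSO arrays labelled NALM-6 alone, IGHD 214973_x_at through 3 arrays labelled SUP-B8, and IGHV1-69 240915_at through 5 arrays; the others were above the medians on all 8. Values are deposited log2 units, and levels are compared only within a probe set. Bulk RNA does not separate fewer cells of a type from less RNA per cell.

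**Figure D1:**
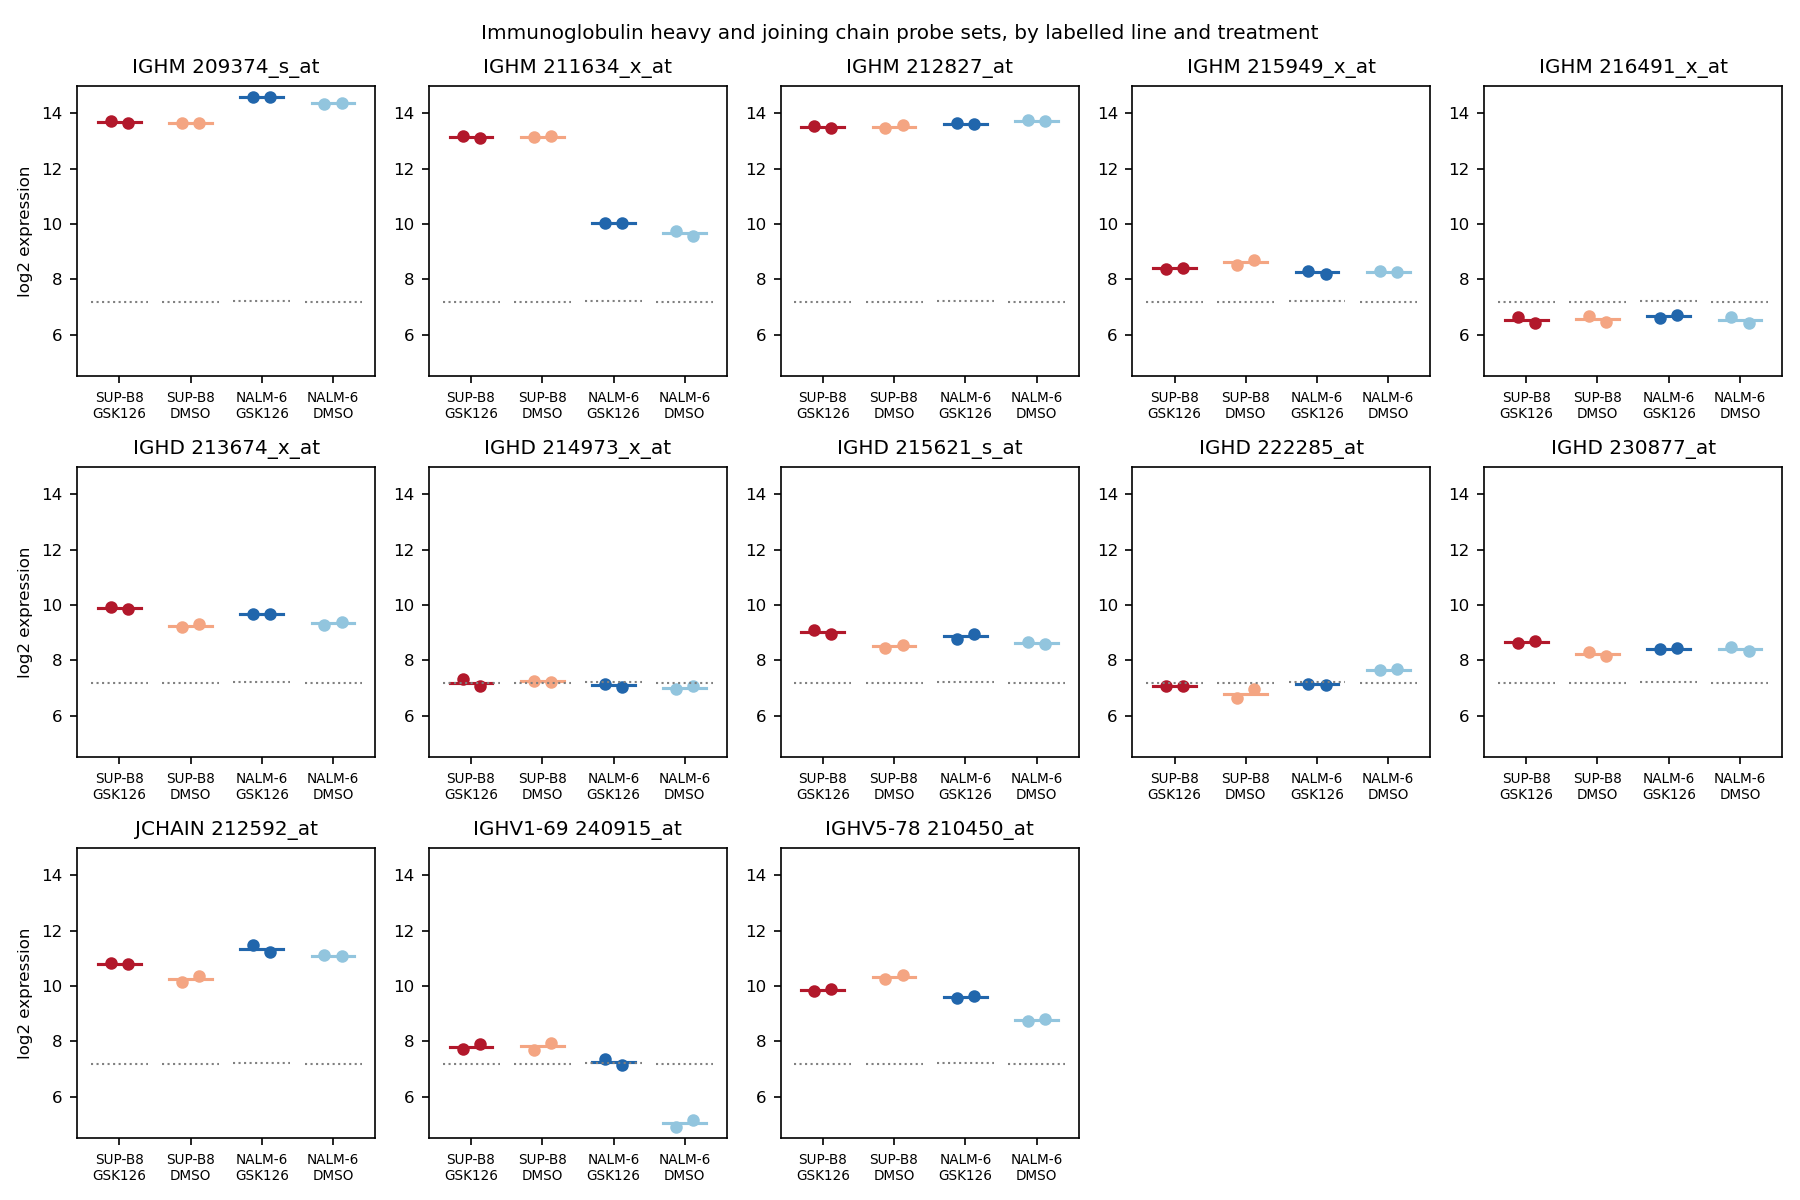
Deposited log2 value (vertical axis) of each member probe set on the 8 arrays, 1 panel per probe set, with arrays as points, group means as bars and the mean array median as a dotted line. IGHM 211634_x_at sits between 13.11 and 13.18 in arrays labelled SUP-B8 and between 9.58 and 10.03 in those labelled NALM-6, and IGHV1-69 drops to 4.92 and 5.16 in the DMSO arrays labelled NALM-6, below the array medians.

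IGHM 209374_s_at and 212827_at gave strong signals in every group, and the tested IGHM probe sets disagreed on which labelled line was higher. IGHM 209374_s_at had 13.71 and 13.67 in GSK126 arrays labelled SUP-B8, against 13.67 and 13.66 in their DMSO arrays. With the NALM-6 label it had 14.60 and 14.60 with GSK126, against 14.34 and 14.38 with DMSO. Both arrays labelled SUP-B8 lay below both labelled NALM-6 under either treatment. The difference, SUP-B8 minus NALM-6, was -0.91 ± 0.05 (SE) under GSK126 and -0.70 ± 0.05 under DMSO (limma, adjusted p = 7.8e-07 and 3.41e-06).

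IGHM 211634_x_at went the other way and by far more. Its values were 13.18 and 13.11 in GSK126 arrays labelled SUP-B8, against 10.03 and 10.03 in those labelled NALM-6. With DMSO they were 13.13 and 13.18 in arrays labelled SUP-B8, against 9.75 and 9.58 in those labelled NALM-6. The groups were separated by more than 3 log2 units on every array, a gap of 3.11 ± 0.07 under GSK126 and 3.49 ± 0.07 under DMSO (limma, adjusted p = 3.89e-09 and 1.81e-09), or 8.65-fold and 11.2-fold higher.

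IGHM 212827_at was close to equal: 13.56 and 13.46 in GSK126 arrays labelled SUP-B8 against 13.64 and 13.63 in those labelled NALM-6, and 13.46 and 13.57 in DMSO arrays labelled SUP-B8 against 13.75 and 13.73 in those labelled NALM-6. The difference was -0.12 ± 0.06 under GSK126 (limma, adjusted p = 0.105), and -0.23 ± 0.06 under DMSO (limma, adjusted p = 0.0102), a call lost when SUP-B8-labelled DMSO replicate 1 was omitted (-0.17, adjusted p = 0.0616). IGHM 215949_x_at differed by 0.15 ± 0.07 under GSK126 (limma, adjusted p = 0.101), with 8.38 and 8.43 in arrays labelled SUP-B8 against 8.32 and 8.19 in those labelled NALM-6. Under DMSO it was higher by 0.34 ± 0.07 (limma, adjusted p = 0.00293), with 8.53 and 8.70 in arrays labelled SUP-B8 against 8.29 and 8.25 in those labelled NALM-6. The suffix x marks probe sets that the manufacturer expects to cross-hybridise, and s those that match several transcripts. The exons each covers are not given in the sources used here, and the part of this in the disagreement was not tested.

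The 3 brighter IGHD probe sets differed little between the labelled lines, by at most 0.24, with opposite signs under the 2 treatments. IGHD 213674_x_at read 9.94 and 9.86 with GSK126 and 9.20 and 9.31 with DMSO in arrays labelled SUP-B8. Among arrays labelled NALM-6 it read 9.66 and 9.67 with GSK126 and 9.29 and 9.39 with DMSO. All 4 GSK126 arrays lay above all 4 DMSO arrays. Between lines the difference was 0.23 ± 0.06 under GSK126 (limma, adjusted p = 0.0128) and -0.08 ± 0.06 under DMSO (limma, adjusted p = 0.282). The first was not called when SUP-B8-labelled GSK126 replicate 1, or either GSK126 array labelled NALM-6, was omitted (0.19 to 0.27 over all omissions, adjusted p up to 0.0839).

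IGHD 230877_at read 8.65 and 8.69 with GSK126 and 8.31 and 8.17 with DMSO in arrays labelled SUP-B8, and 8.41 and 8.45 with GSK126 and 8.47 and 8.35 with DMSO in those labelled NALM-6. The arrays labelled SUP-B8 were thus higher under GSK126 (0.24 ± 0.07, limma, adjusted p = 0.0138) and lower under DMSO (-0.18 ± 0.07, limma, adjusted p = 0.0495). Neither held in full when arrays were omitted: the first was called in 6 of 8 omissions, and lost without SUP-B8-labelled GSK126 replicate 2 or NALM-6-labelled GSK126 replicate 1, and the second in 2 of 8. IGHD 215621_s_at was not called in either contrast, with 9.09 and 8.94 in GSK126 arrays labelled SUP-B8 against 8.79 and 8.96 in those labelled NALM-6, and 8.46 and 8.56 in DMSO arrays labelled SUP-B8 against 8.66 and 8.59 in those labelled NALM-6.

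The other IGHD probe sets were dim and lay near the medians. IGHD 222285_at had 7.66 and 7.68 in DMSO arrays labelled NALM-6 and was below the array medians in the other 3 groups, at 6.63 to 7.15. Under DMSO the arrays labelled SUP-B8 were thus lower by at least 0.48, the distance of the measured group to the array medians, and under GSK126 both lines were below them. The probe set entered the fit only through the group in which it was high, so no p is given for that difference. IGHD 214973_x_at had 7.25 and 7.23 in DMSO arrays labelled SUP-B8 against 6.98 and 7.07, below the medians, in those labelled NALM-6, a difference of at least 0.04. It too entered the fit only through arrays labelled SUP-B8, so no p is given, and it was not called under GSK126.

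Both variable segments were lowest in the DMSO arrays labelled NALM-6. IGHV1-69 240915_at read 7.71 and 7.90 with GSK126 and 7.70 and 7.96 with DMSO in arrays labelled SUP-B8. In arrays labelled NALM-6 it read 7.37 and 7.16 with GSK126 and 4.92 and 5.16 with DMSO. The DMSO arrays labelled NALM-6 stood far below the others and below their array medians. GSK126 replicate 2 with that label, at 7.16, was also slightly below its array median of 7.24. With the SUP-B8 label the segment was higher by 0.54 ± 0.12 under GSK126 (limma, adjusted p = 0.00415), and by at least 0.63 under DMSO (measured difference 2.79 ± 0.12, limma, adjusted p = 1.57e-07).

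IGHV5-78 210450_at, the pseudogene segment, read 9.83 and 9.91 with GSK126 and 10.25 and 10.42 with DMSO in arrays labelled SUP-B8. With the NALM-6 label it read 9.59 and 9.66 with GSK126 and 8.74 and 8.81 with DMSO. The GSK126 arrays of both labels lay between the DMSO arrays of the 2 labels. The gap between labels was 0.25 ± 0.07 under GSK126 (limma, adjusted p = 0.0139) and 1.56 ± 0.07, or 2.95-fold, under DMSO (limma, adjusted p = 2.04e-07). The GSK126 call was lost without SUP-B8-labelled GSK126 replicate 2 or NALM-6-labelled GSK126 replicate 1 (0.21 to 0.29 over all omissions).

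JCHAIN 212592_at read 10.82 and 10.79 with GSK126 and 10.15 and 10.37 with DMSO in arrays labelled SUP-B8. Among arrays labelled NALM-6 it read 11.47 and 11.23 with GSK126 and 11.13 and 11.08 with DMSO. Every array labelled SUP-B8 lay below every array labelled NALM-6. The joining chain was lower in the arrays labelled SUP-B8 under GSK126 (-0.55 ± 0.10, limma, adjusted p = 0.00103) and under DMSO (-0.85 ± 0.10, limma, adjusted p = 6.18e-05), and both calls held in all 8 omissions of an array.

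Of the 12 tested members, 7 were called between labels under GSK126 (5 higher and 2 lower in arrays labelled SUP-B8) where 66.5% of all tested probe sets were called, 33.9% higher and 32.6% lower. Under DMSO 10 were called (5 higher and 5 lower) where 67.8% were, 35.9% higher and 31.9% lower, and 2 of the 10, IGHD 222285_at and IGHD 214973_x_at, had entered the fit only through their higher group. Nothing particular to the members is read from these counts, and that under GSK126 was 4 without NALM-6-labelled GSK126 replicate 1. The median difference over the members was 0.15 under GSK126 and -0.10 under DMSO, against -0.01 and 0.02 over all tested probe sets. Of the 13 members the arrays of the labels did not overlap in 10 under GSK126 and in 11 under DMSO, where 84.3% and 81.6% of tested probe sets did not.

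**Figure D2:**
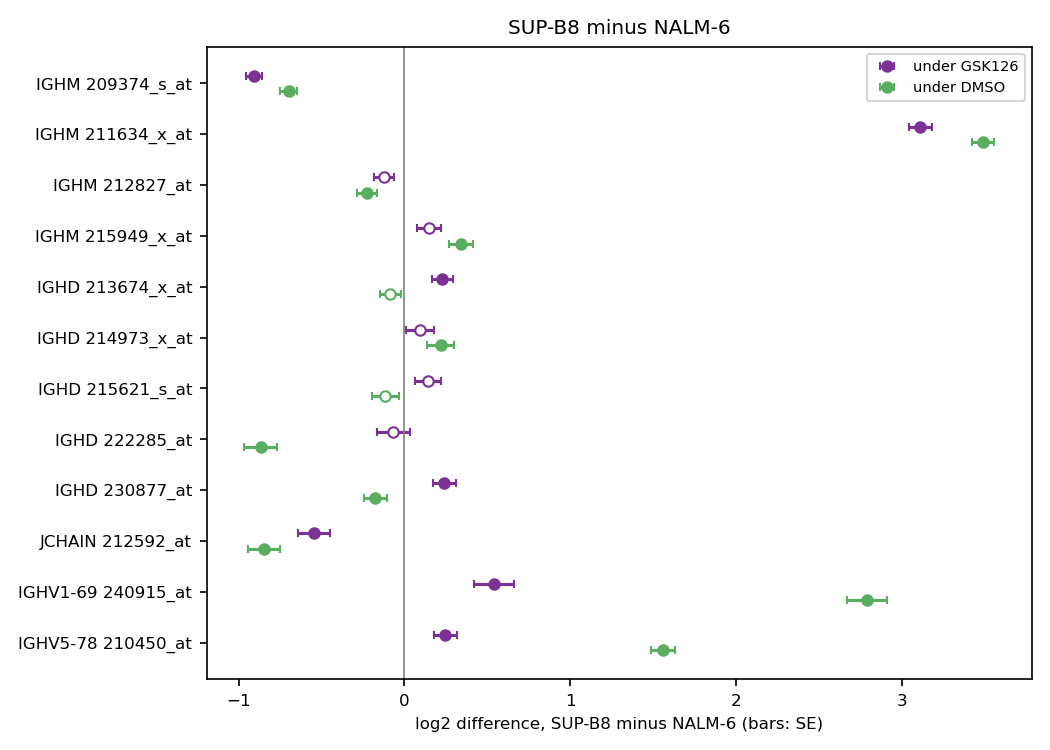
Log2 difference between labels, SUP-B8 minus NALM-6 (horizontal axis), for the 12 tested members, under GSK126 and under DMSO, with bars for SE, filled points for called and open points for not called differences. IGHM 211634_x_at lies near 3 under both treatments, while IGHV5-78 stands at 0.25 under GSK126 and at 1.56 under DMSO. The plotted 2.79 of IGHV1-69 under DMSO is measured against a group below the array medians, and its bound is at least 0.63.

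The GSK126 contrasts chose these genes. In arrays labelled SUP-B8 GSK126 minus DMSO was 0.64 ± 0.06 for IGHD 213674_x_at (1.56-fold), 0.51 ± 0.08 for IGHD 215621_s_at, 0.43 ± 0.07 for IGHD 230877_at and 0.55 ± 0.10 for JCHAIN (1.46-fold). IGHV5-78 was lower, at -0.46 ± 0.07. The bright IGHM probe sets stayed within 0.03 of their DMSO means (0.03 ± 0.05, -0.01 ± 0.07 and -0.00 ± 0.06), and IGHM 215949_x_at differed by -0.21 ± 0.07. IGHV1-69 differed by -0.02 ± 0.12 and IGHD 214973_x_at by -0.05 ± 0.08, and IGHD 222285_at was below the medians in both groups.

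Of the 12 tested members, 5 were called there (4 higher and 1 lower), where 1.16% of all tested probe sets were called, 1.02% higher and 0.139% lower. Since the contrast chose the genes, nothing is read from that excess. Without SUP-B8-labelled GSK126 replicate 1 the count was 0, without SUP-B8-labelled GSK126 replicate 2 or DMSO replicate 2 it was 1, and without SUP-B8-labelled DMSO replicate 1 or either DMSO array labelled NALM-6 it was 2. IGHD 213674_x_at stayed between 0.58 and 0.70 in these omissions. In 8 of 13 members the arrays of the treatments did not overlap, against 47.7% of tested probe sets.

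In arrays labelled NALM-6 IGHV1-69 240915_at was higher with GSK126 by at least 0.04, since its DMSO group lay below the medians (measured difference 2.23 ± 0.12). Its GSK126 replicate 2 was also below its array median. IGHV5-78 was higher by 0.85 ± 0.07, or 1.80-fold. IGHM 211634_x_at was higher by 0.36 ± 0.07 and IGHM 209374_s_at by 0.24 ± 0.05, whereas IGHM 212827_at differed by -0.10 ± 0.06 and IGHM 215949_x_at by -0.02 ± 0.07. Among the IGHD probe sets the differences were 0.33 ± 0.06 for 213674_x_at, 0.25 ± 0.08 for 215621_s_at, 0.08 ± 0.08 for 214973_x_at and 0.02 ± 0.07 for 230877_at. IGHD 222285_at was lower by at least 0.48, its GSK126 group being below the medians. JCHAIN differed by 0.24 ± 0.10.

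Here 7 of 12 members were called (6 higher and 1 lower), where 39.3% of all tested probe sets were called, 19.2% higher and 20% lower. The 1 lower, IGHD 222285_at, had entered the fit only through its higher group, the DMSO arrays labelled NALM-6, so its call is not a test. This contrast also chose the genes, so nothing is read from the count. In 9 of 13 members the treatments did not overlap, against 69.5% of tested probe sets. The median difference over the members was 0.01 in arrays labelled SUP-B8 and 0.24 in those labelled NALM-6, against -0.02 and 0.01 over all tested probe sets.

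**Figure D3:**
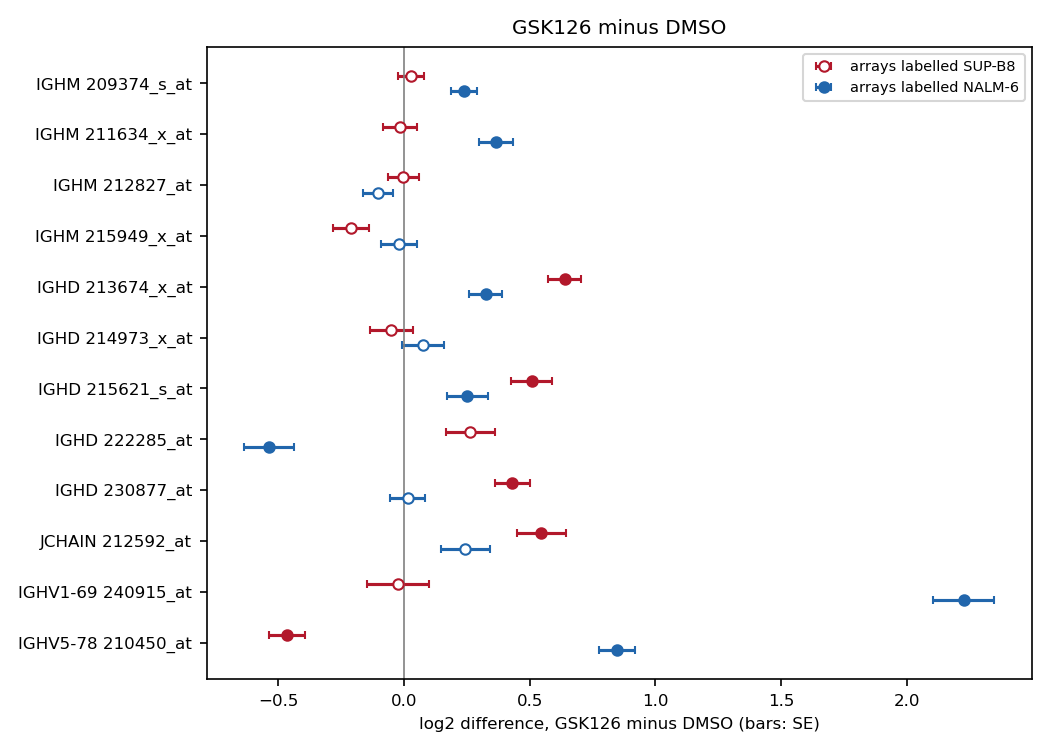
Log2 difference GSK126 minus DMSO (horizontal axis) for the 12 tested members in arrays labelled SUP-B8 and NALM-6, with bars for SE, filled points for called and open points for not called differences. IGHD 213674_x_at is at 0.64 and 0.33, IGHV5-78 at -0.46 and 0.85, and IGHV1-69 at -0.02 and 2.23 in the arrays labelled SUP-B8 and NALM-6, the last measured against a DMSO group below the array medians and bounded at 0.04.

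The response in arrays labelled SUP-B8 minus that in arrays labelled NALM-6 was -1.31 ± 0.10 for IGHV5-78. For IGHV1-69 the measured value was -2.25 ± 0.17, which has no exact size because the DMSO arrays labelled NALM-6 lay below the medians. It was 0.42 ± 0.10 for IGHD 230877_at, 0.31 ± 0.09 for IGHD 213674_x_at and 0.80 ± 0.14 for IGHD 222285_at, the last with 3 of its 4 groups below the medians. For IGHM 211634_x_at it was -0.38 ± 0.10. These 6 of 12 were called, where 24.5% of all tested probe sets were, and the other 6 were not, JCHAIN with 0.30 ± 0.14 among them. Of the called, IGHD 222285_at had entered the fit only through the DMSO arrays labelled NALM-6, so its call is not a test. The responses chose the genes, so nothing is read from this count either. The count was 3 without SUP-B8-labelled GSK126 replicate 2 and 3 without NALM-6-labelled GSK126 replicate 1. IGHV5-78 was the only tested member called in opposite directions in the labelled lines, and its SUP-B8 call was kept in 3 of 8 omissions of an array.

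Light chain transcripts are partners of the heavy chain. In the whole platform 39 further probe sets carried a single symbol of another immunoglobulin gene, and 19 of them were tested. Heavy chain symbols (IGHG1, IGHA1, IGHV7-81 and IGHV3-75) were among the 39, beside those of light chains. In arrays labelled SUP-B8 GSK126 moved 0 of these 19 by limma (1 at an unadjusted p under 0.05, differences of -0.36 to 0.19), where 1.16% of all probe sets were called. With the NALM-6 label 4 of 19 rose and none fell, where 19.2% of all probe sets were higher and 20% lower. The 4 were lambda: IGLC1 214677_x_at (0.28 ± 0.05), IGLJ3 211798_x_at (0.29 ± 0.10) and IGLV1-44 at 2 probe sets (0.19 ± 0.06 and 0.58 ± 0.14). IGLC1 214677_x_at, a lambda constant region, averaged 14.15 ± 0.03 with GSK126 and 14.12 ± 0.04 with DMSO in arrays labelled SUP-B8, and 14.60 ± 0.02 with GSK126 and 14.31 ± 0.02 with DMSO in those labelled NALM-6 (SD, n = 2 each). Another tested probe set of IGLC1, 209138_x_at, was not among the 4. The lambda probe sets given here by identifier carry the suffix x, and the part of cross-hybridisation in their signal was not tested. Of the 19, 3 were higher and 10 lower in arrays labelled SUP-B8 than in those labelled NALM-6 under GSK126, and 2 were higher and 5 lower under DMSO. Of all probe sets 66.5% were called under GSK126 and 67.8% under DMSO. IGLV1-44 217227_x_at was lower in arrays labelled SUP-B8 under DMSO (-3.42 ± 0.14, limma, adjusted p = 1.17e-07), with 7.60 ± 0.17 there against 11.02 ± 0.08 in those labelled NALM-6 (SD, n = 2 each).

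The chaperones and enzymes that fold, join and export immunoglobulin were chosen as a list of 15, of which 14 had a tested probe set, each gene standing as its brightest probe set with 1 symbol. In arrays labelled SUP-B8 GSK126 changed 0 of 14 by limma (3 at an unadjusted p under 0.05), where 1.34% of all 13161 genes tested were called, and the median difference was -0.01. TENT5C, a poly(A) polymerase that stabilises immunoglobulin mRNA, differed there by 0.41 ± 0.11 without a call, and EDEM1, of ER-associated degradation, by -0.26 ± 0.06.

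Among arrays labelled NALM-6 13 of the 14 rose with GSK126 and 1 fell, where 37.9% of all genes were called, 20.1% higher and 17.7% lower, and the median difference was 0.68 against 0.02 over all genes. TENT5C averaged 9.67 ± 0.27 with GSK126 and 7.64 ± 0.09 with DMSO, a difference of 2.03 ± 0.11. FKBP11, a secretory prolyl isomerase, averaged 11.77 ± 0.01 with GSK126 and 10.10 ± 0.11 with DMSO, a difference of 1.66 ± 0.06. HSP90B1, the ER form of HSP90, was higher by 1.34 ± 0.07. MZB1, a cofactor of heavy chain folding, was higher by 0.98 ± 0.06, and HSPA5, which binds unassembled heavy chains, by 0.96 ± 0.06. ERP44, which retains unfinished IgM, was the gene that fell (-0.40 ± 0.06).

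Between labels 2 of the 14 were higher and 8 lower in arrays labelled SUP-B8 under GSK126, where 66.7% of all genes were called, 34.6% higher and 32.1% lower. Under DMSO 10 were higher and 4 lower, where 67.3% were called, 37.2% higher and 30.1% lower. SEC11C, a signal peptidase subunit, was lower under GSK126 (-1.74 ± 0.06) and under DMSO (-1.46 ± 0.06), and FKBP11 was higher by 2.20 ± 0.06 under DMSO. This list was put together with earlier results of these arrays known and is not independent evidence of its direction.

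**Figure D4:**
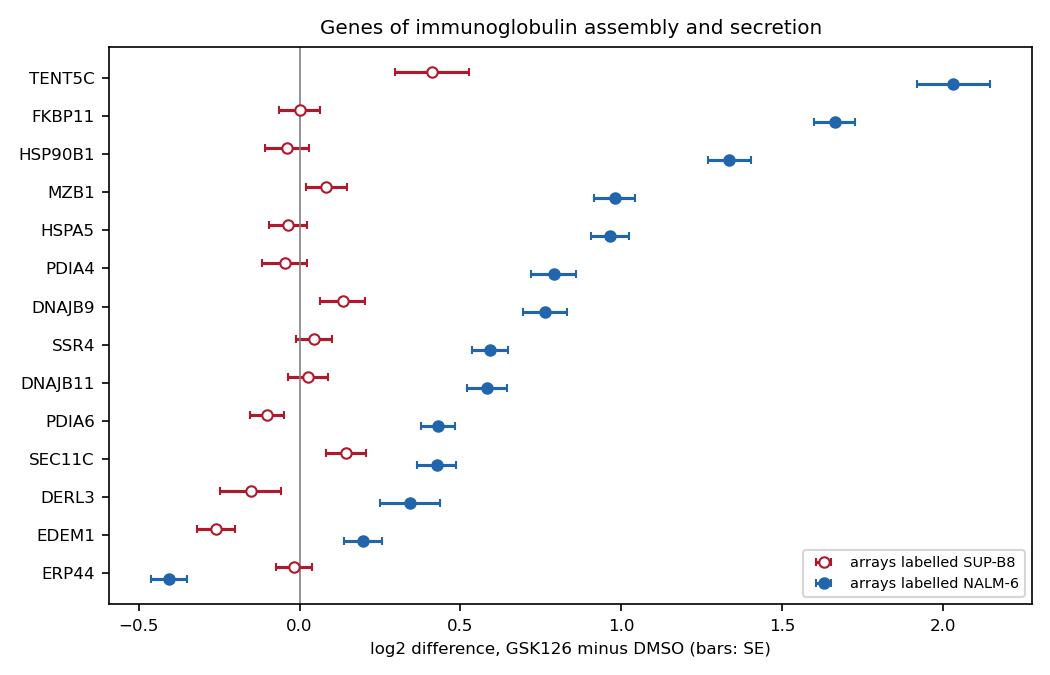
Log2 difference GSK126 minus DMSO (horizontal axis) for the 14 tested genes of immunoglobulin assembly and secretion in arrays labelled SUP-B8 and NALM-6, with bars for SE, filled points for called and open points for not called differences. All points for arrays labelled SUP-B8 are open, and in arrays labelled NALM-6 13 genes are to the right of 0 and ERP44 is to the left.

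Factors that transcribe and splice the heavy chain gene formed a list of 22, with 21 tested. The list was written with earlier results of these arrays known, so nothing is read from its counts beside the shares over all genes. In arrays labelled SUP-B8 4 were called higher with GSK126, where 1.22% of genes were, and none lower, where 0.122% were: SPIB, an ETS factor of B cells (0.53 ± 0.06), IKZF3, or Aiolos (0.46 ± 0.06), BCL6, the germinal-centre repressor (0.34 ± 0.05), and ELL2, which favours the secreted form of heavy chain mRNA and was below the array medians in both groups. In arrays labelled NALM-6 7 rose and 7 fell, where 20.1% of genes were higher and 17.7% lower. ELL2 averaged 10.15 ± 0.01 with GSK126 and 8.35 ± 0.02 with DMSO, a difference of 1.80 ± 0.09, and XBP1, the driver of the secretory programme, was higher by 0.67 ± 0.07. ZNF318, which allows the splice to the delta exons, was lower (-0.63 ± 0.06), as was MEF2C (-0.67 ± 0.05).

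Between labels 15 of the 21 were lower in arrays labelled SUP-B8 under each treatment, and 5 were higher under GSK126 and 6 under DMSO. Over all genes 32.1% were lower and 34.6% higher under GSK126, and 30.1% lower and 37.2% higher under DMSO. IRF8, a factor of mature B cells, was lower under GSK126 (-4.29 ± 0.06) and under DMSO (-4.71 ± 0.06). SPIB was lower under GSK126 (-2.28 ± 0.06) and under DMSO (-3.37 ± 0.06). HNRNPLL, a splicing factor of plasma cells, was below the array medians in arrays labelled SUP-B8 and lower by at least 4.34 under GSK126 and at least 3.89 under DMSO. HNRNPLL and ELL2 entered the fit only through the arrays labelled NALM-6, so their calls between labels are not a test.

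Of 8 partners of the B-cell receptor, 7 were tested. GSK126 changed 0 of 7 in arrays labelled SUP-B8 by limma (3 at an unadjusted p under 0.05), where 1.34% of genes were called. With the NALM-6 label 2 rose and 3 fell, where 37.9% of genes were called, with CD79B, which carries IgM to the membrane, at 0.55 ± 0.05 and IFITM1, an interferon-induced membrane protein, at 1.06 ± 0.12. The inhibitory coreceptor CD22 (-0.57 ± 0.07) and CR2 (-0.52 ± 0.06) were among those that fell. CD79A, the partner of CD79B, differed by 0.12 ± 0.05 in arrays labelled SUP-B8 and by -0.14 ± 0.05 in those labelled NALM-6, without a call in either. Between labels 1 of the 7 was higher and 6 lower in arrays labelled SUP-B8 under both treatments. Over all genes 34.6% were higher and 32.1% lower under GSK126, and 37.2% and 30.1% under DMSO. PTPRC was below the array medians in arrays labelled SUP-B8, lower by at least 5.39 under GSK126 and 5.48 under DMSO. PTPRC and CR2 entered the fit only through the arrays labelled NALM-6, so their calls between labels are not a test.

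Of 9 genes of recombination and class switch, 8 were tested, in a list also written with earlier results of these arrays known. Between labels 6 were higher and 1 lower in arrays labelled SUP-B8 under both treatments. Under GSK126 66.7% of all genes were called, 34.6% higher and 32.1% lower, and under DMSO 67.3%, 37.2% higher and 30.1% lower. Among the higher, RAG1, RAG2 and DNTT entered the fit only through the arrays labelled SUP-B8, so their calls are not a test. RAG1 and RAG2, the recombinase that cuts V segments, and DNTT, which adds bases to the joints, were below the array medians in arrays labelled NALM-6. Under GSK126 the arrays labelled SUP-B8 exceeded them by at least 3.14 for RAG1, 3.29 for RAG2 and 6.35 for DNTT, and under DMSO by at least 3.37, 3.24 and 6.47. GSK126 changed 0 of the 8 in arrays labelled SUP-B8 by limma (0 at an unadjusted p under 0.05), where 1.34% of genes were called, with RAG1 at -0.24 ± 0.13 and DNTT at -0.13 ± 0.08. Among arrays labelled NALM-6 2 rose and 2 fell, where 37.9% of genes were called, none by more than 0.36, the size for PRKDC (-0.36 ± 0.07).

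The genes most like each member over the 8 arrays were ranked by the Euclidean distance of the log2 values, each gene centred on its own mean, among 13156 genes. The points share arrays and labels, so the distances describe this set alone. IGHM 209374_s_at was nearest to PMVK (0.0740), HIF1A (0.0837) and ADA (0.0999). IGHD 213674_x_at was nearest to KLHL23 (0.299), GGH (0.314) and FER (0.365), and JCHAIN to PLAG1 (0.339), GPR160 (0.342) and UBE2E2 (0.374). IGHV1-69 was nearest to ABCB4 (0.402), HEBP1 (0.691) and ZBTB8A (0.707), and IGHV5-78 to XBP1 (0.360), MLKL (0.430) and SLC30A7 (0.438).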

How the data were processed

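The values are log2 units per probe set and array, deposited by the authors. The submitters' processing notes name MAS5 and RMA, and which of them made the values is not given in the sources used here. Array medians were 7.18 to 7.24, so no further transformation was made, and replicates correlated at r = 0.9977 to 0.9982 across probe sets. Arrays scaled to a common distribution hide any shift that affects most transcripts alike. Symbols came from the platform annotation: 41097 probe sets had 1, 1801 several and 11777 none.

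Limma 3.58.1 in R 4.3.3 fitted 1 mean per group on the 30199 probe sets with at least 2 of 8 arrays above their median, with 4 residual degrees of freedom and Benjamini-Hochberg adjustment. A call is an adjusted p under 0.05. With 2 against 2 arrays the smallest two-sided p of an exact permutation test is 0.333, and the calls rest on the model. A group with all arrays below their medians was taken as not shown above background, and a difference against it was bounded by how far the measured group lay above those medians. All member probe sets were named. From each list genes were named out of the up to 4 called genes of largest size per contrast, or those of largest size where none was called. Not all of these genes are named for every contrast. ERP44, CD79A and light chain probe sets that are not the brightest of their gene fall outside this rule and were named after their values were seen. Members and lists were chosen with earlier results of these data known. The fit was tested on simulated data with a common spread for all probe sets, so that test does not cover spreads that differ between probe sets. Tables were prepared in Python 3.11.15. The number of arrays limits the precision.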

Additional observations from a re-analysis of the deposited data

Results flagged for a closer look

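Differences between the labelled lines in the response to GSK126 (response in arrays labelled SUP-B8 minus that in arrays labelled NALM-6, log2) passed the threshold used for all probe sets in 6 members. These responses chose the genes, so the values are a description and not a test. They were -1.31 for IGHV5-78 210450_at and, as a measured value without exact size, -2.25 for IGHV1-69 240915_at. For IGHM 211634_x_at the difference was -0.38. Among IGHD probe sets it was 0.31 for 213674_x_at, 0.80 for 222285_at and 0.42 for 230877_at. The value of IGHV1-69 rests on the DMSO arrays labelled NALM-6, which lay below their array medians. The value of IGHD 222285_at rests on the only group above its medians.

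Outside the members, 34 probe sets carry several symbols with at least 1 of the heavy chain locus, so no gene is named from them. In arrays labelled NALM-6 probe set 217022_s_at averaged 8.89 ± 0.12 with GSK126 and 7.01 ± 0.20, below the array medians, with DMSO (SD, n = 2 each), a measured difference of 1.88 and at least 1.66.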

How the results depend on the processing

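Of 878 recomputed values of single members, 762 kept their direction and side of the threshold, 87 lost a call, 10 gained one, 17 moved and 2 reversed. The 2 that reversed were IGHM taken as the mean of its probe sets in place of the brightest, SUP-B8 minus NALM-6, at 0.42 under GSK126 and 0.58 under DMSO. In the order GSK126 in arrays labelled SUP-B8, GSK126 in arrays labelled NALM-6, difference of responses, labels under DMSO and labels under GSK126, the members called were 5, 7, 6, 10 and 7 and all probe sets called were 350, 11856, 7404, 20478 and 20089. Without a filter the first was 1 of the members and 181 in all, and with only the 4 arrays compared 1 and 146. A trended robust prior gave 1206 in all for the first. By brightest probe set per gene, members called were 3, 4, 3 and 4 in the first 4 contrasts, and genes called were 5178, 3343, 8990 and 8913 in the last 4. With probe sets averaged per gene they were 3, 2, 3 and 5, and 5124, 3454, 8668 and 8496, where fewer features were tested. With at least a 2-fold difference members called were 0, 1, 2, 3 and 1, and 21, 683, 745, 6103 and 5351 in all. Over omissions of an array, members called were 0 to 4, 6 to 7, 3 to 5, 8 to 9 and 4 to 7, and all called were 38 to 252, 8541 to 12021, 5190 to 6434, 18947 to 20192 and 17893 to 20178. The count of 4 for labels under GSK126 came without NALM-6-labelled GSK126 replicate 1. The difference of responses had 3 without that array or without SUP-B8-labelled GSK126 replicate 2.

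With replicate number as a block, members called were 4, 6, 5, 9 and 7 and all called 273, 11273, 6763, 20212 and 19794. Deviations of same-numbered arrays correlated at -0.19 to 0.09 between groups. The labels do not say whether same-numbered arrays were prepared together. With the 40th percentile as the floor, IGHV1-69 was bounded at 0.51 (GSK126, arrays labelled NALM-6) and 1.09 (labels, DMSO), and IGHD 222285_at and 214973_x_at gave no bound. Signal near the array medians limits IGHV1-69 and the dim IGHD probe sets.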

Other observations

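Heavy chain probe sets with several symbols, of which 17 of 34 were tested, gave 0 calls with GSK126 in arrays labelled SUP-B8 (limma, 1 at an unadjusted p under 0.05, differences of -0.17 to 0.14), where 1.16% of all probe sets were called. With the NALM-6 label 5 of 17 rose and none fell, where 19.2% of all probe sets were higher and 20% lower. One was 217022_s_at, which entered the fit only through the GSK126 arrays labelled NALM-6, so its call is not a test. The others were 211430_s_at (0.94 ± 0.11), 216541_x_at (0.64 ± 0.09), 228518_at (0.60 ± 0.12) and 211635_x_at (0.47 ± 0.05). Between labels they split in direction. Probe set 211635_x_at was higher in arrays labelled SUP-B8 by 2.86 ± 0.05 under GSK126 and 3.41 ± 0.05 under DMSO (limma, adjusted p = 1.55e-09 and 5.67e-10). Probe set 211430_s_at was below the array medians there, and was lower by at least 5.31 under GSK126 and at least 4.40 under DMSO.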
